A study of Mus musculus with 6 samples.

Results

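The 10 genes described here form the core of osteoclast differentiation and the RANKL axis, and were chosen by name from the 27506 genes of the count table. They are the cytokines *Tnfsf11* (RANKL) and *Csf1* (M-CSF), their receptors *Tnfrsf11a* (RANK) and *Csf1r*, the soluble decoy receptor *Tnfrsf11b* (osteoprotegerin, OPG), the costimulatory receptor *Oscar*, the fusion genes *Dcstamp* and *Ocstamp*, and the resorption enzymes *Acp5* (tartrate-resistant acid phosphatase) and *Ctsk* (cathepsin K). All 10 were found, each in 1 row. RNA was sequenced from dental pulp of the mandibular first molar of C57BL/6 mice at P3.5 (3.5 days after birth), when root formation starts. The 3 control libraries came from *Ror2fl/fl* mice, and the 3 mutant libraries from *Osr2-Cre;Ror2fl/fl* mice, so that both groups carried the floxed allele on both copies of *Ror2*, a receptor of non-canonical Wnt signaling. The Cre transgene is active in the dental mesenchyme and the alveolar bone and not in the dental epithelium. Activity of this transgene in the myeloid lineage, from which osteoclasts arise, is not described in the sources used here. They do not state the sex of the mice, whether animals were pooled, or that each library came from a separate animal, so the p-values measure the spread between these libraries.

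Osteoclasts are multinucleated cells that resorb bone and mineralized tooth tissue, and they form by fusion of precursors of the monocyte and macrophage lineage. CSF1 keeps these precursors alive through its receptor, and RANKL, made by mesenchymal cells such as osteoblasts, osteocytes and cells of the dental follicle, drives their differentiation through RANK, unless it is bound by osteoprotegerin. Costimulatory receptors such as OSCAR and TREM2 signal through the adaptors FcRγ (*Fcer1g*) and DAP12 (*Tyrobp*), and the signals together induce the transcription factor NFATc1. Around a growing tooth, osteoclasts open the eruption path and shape the alveolar bone, while the pulp itself is usually poor in them.

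The estimated counts summed to between 56134770 and 62628940 per library. Levels are given as CPM, each count divided by its library's total after TMM scaling in edgeR, and an adjusted p-value under 0.05 from edgeR's quasi-likelihood test over the 19330 genes tested is called past the threshold. By that rule 3906 genes, or 20.2%, differed between mutant and control libraries, and the 2 groups of libraries did not overlap for 44.7% of the genes tested. These counts over all genes depended on single libraries, falling to 910 without control library 2, to 872 without control library 3 and to 2404 without mutant library 1. *Ror2* itself had 38.2, 36.2 and 36.7 CPM in control libraries and 27.9, 28.1 and 26.3 CPM in mutant libraries (log2 fold change -0.43, adjusted p = 0.013), and this call was lost without control library 2 (adjusted p = 0.066) and without control library 3 (adjusted p = 0.075, all from edgeR). The labels name dental pulp as the tissue. The libraries also held large amounts of dental epithelial RNA, with 94466 CPM in control and 139642 CPM in mutant libraries for the enamel gene *Amelx*, next to 5369 CPM in control and 4354 CPM in mutant libraries for the odontoblast gene *Dspp*. Library identifiers differ by genotype, so any batch that follows them cannot be told apart from it. They also differ within the controls, with the letters WW for control library 1 and OW for control libraries 2 and 3, beside OR for the mutant libraries. What these letters stand for is not given in the sources used here.

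None of the 10 genes passed the threshold, against 20.2% of all genes tested, 10.4% called higher and 9.84% called lower. DESeq2's Wald test also called none, and without adjustment 2 of the 10, *Oscar* and *Csf1*, had a p-value under 0.05 in edgeR. The fitted log2 fold changes were positive for 6 genes and negative for 4, with a median of 0.04 beside 0.01 for all genes tested. For 9 genes the libraries of the 2 groups overlapped, and *Oscar* was the exception, while the groups did not overlap for 44.7% of all genes tested. All 10 passed edgeR's filter on low counts, but *Tnfsf11*, *Oscar*, *Dcstamp* and *Ocstamp* rested on 5 to 39 counts per library, and these values are limited by counting error as well as by the spread between libraries.

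**Figure D1:**
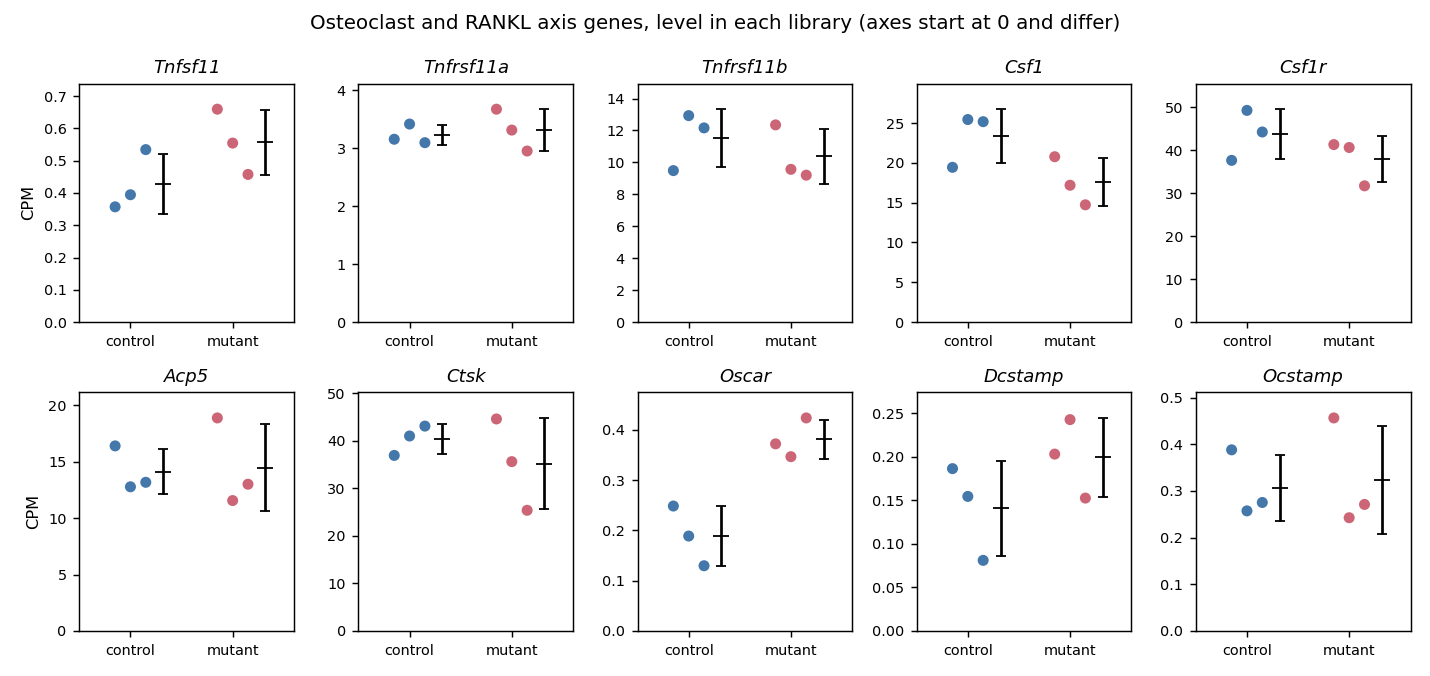
CPM of each of the 10 genes in the 3 control (blue) and 3 mutant (red) libraries, with the mean and SD of each group in black; every vertical axis starts at 0 and has its own range. The 2 groups overlap in all panels except that of *Oscar*, where the mutant libraries lie between 0.347 and 0.424 CPM and the control libraries between 0.13 and 0.248 CPM.

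Per kilobase of exon, the 10 genes covered more than 2 orders of magnitude. *Ctsk*, which encodes the protease that degrades type I collagen in the resorption pit and is also known from fibroblasts, was highest, at 24.9 CPM per kilobase on average, a level above that of 92% of the genes tested. Its lowest library (16.8 CPM per kilobase) exceeded the highest library of any other member. *Csf1r* (7.06 CPM per kilobase) and *Acp5* (7.05 CPM per kilobase) followed, and their ranges over the 6 libraries overlapped. *Tnfrsf11b* (3.89 CPM per kilobase) and *Csf1* (3.87 CPM per kilobase) also overlapped each other, and lay below both. *Tnfrsf11a* had 0.545 CPM per kilobase, above the 0.22 CPM per kilobase of *Tnfsf11* in every library. The lowest 3 were *Oscar* (0.154 CPM per kilobase), *Ocstamp* (0.0862 CPM per kilobase) and *Dcstamp* (0.0638 CPM per kilobase), and in this order each overlapped with the next, as *Tnfsf11* did with *Oscar*. *Dcstamp* lay above 2.53% of the genes tested.

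Promoter sequence is shown for the 2 members whose window from 250 bases before to 50 bases after the RefSeq start site held both motifs searched, on mm10 (RefSeq GRCm38.p6). Such windows were found for 6 of the 10 genes (*Tnfsf11*, *Tnfrsf11a*, *Csf1*, *Acp5*, *Ctsk* and *Oscar*, 8 windows in all). *Tnfrsf11b*, *Csf1r*, *Dcstamp* and *Ocstamp* had no entry. The motifs, on either strand, were the core bound by the myeloid factor PU.1, GAGGAA, and the core bound by NFAT factors, TGGAAA, found in 28.3% and 21.4% of all 32851 windows. Capitals mark the matches, which did not overlap, and a match is a description and not a site. The window of *Ctsk*, the highest member per kilobase of exon, lies at chr3:95498960-95499259 (plus strand). That of *Oscar*, the member whose groups did not overlap, lies at chr7:3616108-3616407 (minus strand).
Ctsk: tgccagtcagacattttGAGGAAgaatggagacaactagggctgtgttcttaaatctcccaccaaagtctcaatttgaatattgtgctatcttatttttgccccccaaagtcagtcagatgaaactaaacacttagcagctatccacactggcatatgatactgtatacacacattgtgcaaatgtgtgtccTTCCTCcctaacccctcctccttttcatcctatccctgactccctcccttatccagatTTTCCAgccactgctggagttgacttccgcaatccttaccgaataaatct
Oscar: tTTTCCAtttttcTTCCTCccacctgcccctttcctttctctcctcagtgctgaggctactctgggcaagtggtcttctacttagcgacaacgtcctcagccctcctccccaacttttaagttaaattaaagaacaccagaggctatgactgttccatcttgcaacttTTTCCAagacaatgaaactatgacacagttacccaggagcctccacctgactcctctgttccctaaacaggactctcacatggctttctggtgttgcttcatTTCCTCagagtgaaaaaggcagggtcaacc
The windows of *Ctsk* and *Oscar* each held 2 matches to the PU.1 core, with 1 match to the NFAT core in *Ctsk* and 2 in *Oscar*. Of the 3 windows of *Acp5*, 1 held an NFAT core. Those of *Tnfsf11*, *Tnfrsf11a* and *Csf1* held neither.

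Other genes known from mature osteoclasts were also divided between detected and barely detected genes. Which cells their transcripts came from was not tested. *Mmp9*, a gelatinase of resorbing cells, had 16.1 to 35.2 CPM, and *Itgb3*, the β3 subunit of the vitronectin receptor, 5.13 to 8.81 CPM. *Atp6v0d2*, a subunit of the vacuolar proton pump needed for fusion, had 0.898 to 1.33 CPM. *Calcr*, the calcitonin receptor, had 0.118 to 0.264 CPM, and *Siglec15* was at 0 in control library 1 and at most 0.169 CPM elsewhere. *Calcr*, *Siglec15* and *Tm4sf19* did not pass the filter on low counts. *Nfatc1*, the transcription factor of the programme, had 10.7 to 16.5 CPM and an adjusted p-value of 0.68 from edgeR. In bulk RNA, fewer cells of a type and less RNA per cell cannot be told apart.

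The ligand and its decoy were examined first. *Tnfsf11* (chromosome 14, 78277445 to 78308043 on mm10, minus strand) was measured at 0.357, 0.395 and 0.534 CPM in control libraries and 0.66, 0.555 and 0.458 CPM in mutant libraries. Mutant libraries 1 and 2 were the highest of the 6, while mutant library 3 lay below control library 3. The log2 fold change was 0.38 (95% interval -0.34 to 1.10, adjusted p = 0.40 from edgeR), an interval that includes a doubling. *Tnfrsf11b* (chromosome 15, 54250619 to 54278484, minus strand) was measured at 9.49, 12.9 and 12.2 CPM in control libraries and 12.3, 9.57 and 9.2 CPM in mutant libraries. The highest mutant value was within the control range and the lowest was just under it. Its log2 fold change was -0.15 (95% interval -0.53 to 0.23, adjusted p = 0.53 from edgeR), and turned to 0.038 when the fit held an offset for each gene's GC content (the GC offset). *Tnfrsf11a*, the receptor on osteoclast precursors (chromosome 1, 105780718 to 105847981, plus strand), stayed between 2.95 and 3.67 CPM in all 6 libraries (log2 fold change 0.04, 95% interval -0.33 to 0.41, adjusted p = 0.88 from edgeR).

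The balance of ligand and decoy was then read within each library, where scaling cancels. The ratio of *Tnfsf11* to *Tnfrsf11b* counts was 0.0376, 0.0305 and 0.0439 in control libraries and 0.0534, 0.058 and 0.0497 in mutant libraries. Every mutant library was above every control library, although neither gene alone separated the groups. The mean ratio was 0.0374 ± 0.00672 (SD, n = 3) in control and 0.0537 ± 0.00413 (SD, n = 3) in mutant libraries, a log2 difference of 0.52, which ran from 0.40 to 0.66 when single libraries were left out. Per length of transcript, osteoprotegerin transcripts outnumbered RANKL transcripts 18.1 to 26-fold in control and 13.7 to 16-fold in mutant libraries. The ratio is given as a description without a test. It rests on 23 to 39 counts of *Tnfsf11* per library. Groups did not overlap for 44.7% of single genes, so this separation alone does not set the pair apart.

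**Figure D2:**
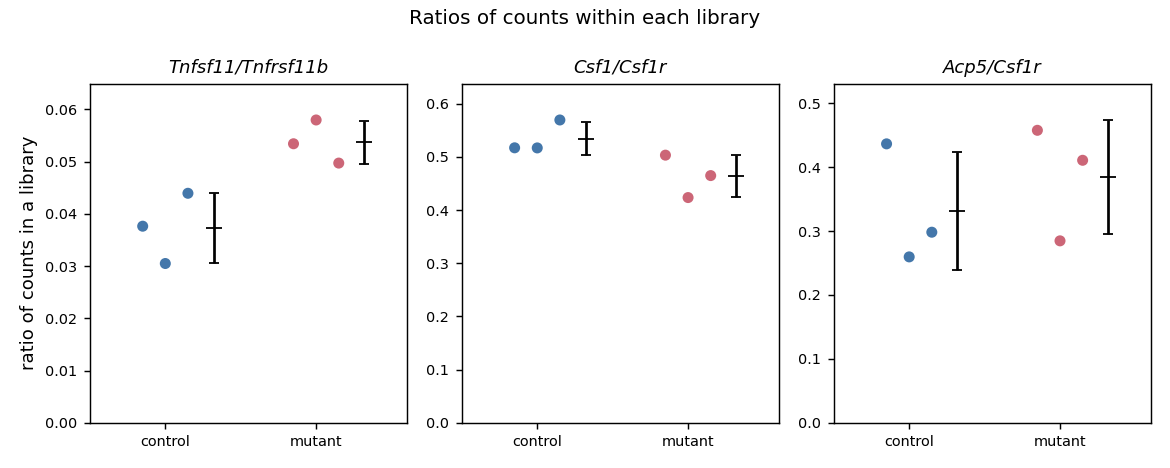
Ratio of counts in each control (blue) and mutant (red) library for 3 pairs of genes, with group means and SD in black and axes from 0. The *Tnfsf11* to *Tnfrsf11b* ratio is higher in all 3 mutant libraries (0.0497 to 0.058) than in any control library (0.0305 to 0.0439). The *Csf1* to *Csf1r* ratio is lower in all 3 mutant libraries, and the *Acp5* to *Csf1r* ratio overlaps. No ratio was tested, and the groups did not overlap for 44.7% of single genes tested.

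Genes that act on RANKL and OPG in mesenchymal cells were examined next. Of 19 genes in a list of regulators of RANKL and OPG in mesenchyme, 17 were tested, and 3 fell while none rose (17.6% past the threshold, against 20.2% of all genes tested; median log2 fold change -0.19). *Sost*, which encodes the Wnt inhibitor sclerostin of osteocytes and late osteoblasts, had 4.53, 8.65 and 6.67 CPM in control libraries and 0.896, 1.35 and 0.763 CPM in mutant libraries. The log2 fold change was -2.72 (SE 0.31, adjusted p = 0.0014 from edgeR), and was past the threshold in all 15 alternatives. *Ptger2*, a receptor for prostaglandin E2, fell from 3.46 ± 1.09 to 1.1 ± 0.561 CPM (SD, n = 3 per group; adjusted p = 0.022 from edgeR), and *Cxcl12*, a chemokine that draws osteoclast precursors, from 67.6 ± 13.1 to 46 ± 3.39 CPM (adjusted p = 0.035 from edgeR). Both calls were lost without control library 2, without control library 3 and without mutant library 1, and that of *Cxcl12* also without mutant library 3. *Pthlh*, the eruption signal made by dental epithelium, was higher in every mutant library, as were 22.6% of all genes tested. It had 11.7 ± 0.602 CPM in control and 14.8 ± 0.949 CPM in mutant libraries, and did not pass (adjusted p = 0.054 from edgeR).

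Markers of tissue next to the pulp differed beside these genes. Of 7 dental follicle markers 4 passed the threshold as lower in mutant libraries, among them *Postn* and *Tnn*. That is 57.1%, against 20.2% of all genes tested past the threshold in either direction. The groups overlapped for *Fbn1*, another of the 4, and *Pthlh*, also on this list, had a positive log2 fold change (0.35) without passing. The summed level of the 7 was 515 to 796 CPM in control and 381 to 538 CPM in mutant libraries. All 6 skeletal muscle markers were lower (100%, against the same 20.2%), with sums of 10.4 to 35.9 CPM and 2.61 to 3.49 CPM. Of the osteoblast and bone markers, 11 of 13 were tested and 18.2% passed, close to the share of all genes. *Sost* was the 1 that fell and *Spp1* the 1 that rose, from 14.9 ± 4.27 to 34.9 ± 17.6 CPM (SD, n = 3 per group; adjusted p = 0.039 from edgeR), while the bone matrix genes *Bglap* (452 ± 123 against 503 ± 140 CPM) and *Ibsp* (67.9 ± 7.92 against 61.5 ± 3.98 CPM) did not pass. *Mepe* and *Fgf23*, further osteocyte genes, were at or near 0 in both groups. In the remaining marker lists, 2 of 5 erythroid (40%), 2 of 11 dental mesenchyme (18.2%), and none of 9 epithelial, 5 endothelial and 3 odontoblast genes passed the threshold (edgeR). The part of these differences in the values of *Tnfsf11*, *Tnfrsf11b*, *Csf1* and *Sost* was not tested.

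*Csf1* (chromosome 3, 107741048 to 107760469, minus strand), the survival factor of macrophages and osteoclast precursors, was measured at 19.4, 25.4 and 25.2 CPM in control libraries and 20.8, 17.2 and 14.7 CPM in mutant libraries. Control library 1 lay below mutant library 1, and the other libraries of the 2 groups lay apart. The log2 fold change was -0.41 (standard error 0.16, 95% interval -0.78 to -0.05), with an unadjusted p-value of 0.032 and an adjusted p-value of 0.097 from edgeR. It stayed negative in all 15 alternatives, with adjusted p-values from 0.053 to 0.27. Its receptor *Csf1r* (chromosome 18, 61100598 to 61132149, plus strand) had 37.6, 49.2 and 44.2 CPM in control libraries and 41.3, 40.6 and 31.7 CPM in mutant libraries, with a log2 fold change of -0.21 (95% interval -0.53 to 0.11, adjusted p = 0.31 from edgeR). *Csf1r* shared 13.9% of its stretches of 75 bases with *Hmgxb3* on the other strand, which had 42.2 CPM on average. How reads from these stretches were divided is not given in the sources used here, so the values of *Csf1r* are uncertain. With the counts of both genes summed, the log2 fold change was -0.0025 (adjusted p = 0.99 from edgeR). That sum holds all reads of both genes, so it cannot show how the shared reads were divided. The ratio of *Csf1* to *Csf1r* counts was 0.517, 0.517 and 0.569 in control libraries and 0.503, 0.423 and 0.465 in mutant libraries. It was not tested, and the nearest values of the 2 groups differed by less than the control SD (0.03). Groups did not overlap for 44.7% of single genes tested. *Il34*, which encodes the other ligand of the same receptor, was far less abundant, at 0.262 ± 0.0663 CPM in control and 0.502 ± 0.14 CPM in mutant libraries (SD, n = 3 per group; adjusted p = 0.099 from edgeR).

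**Figure D3:**
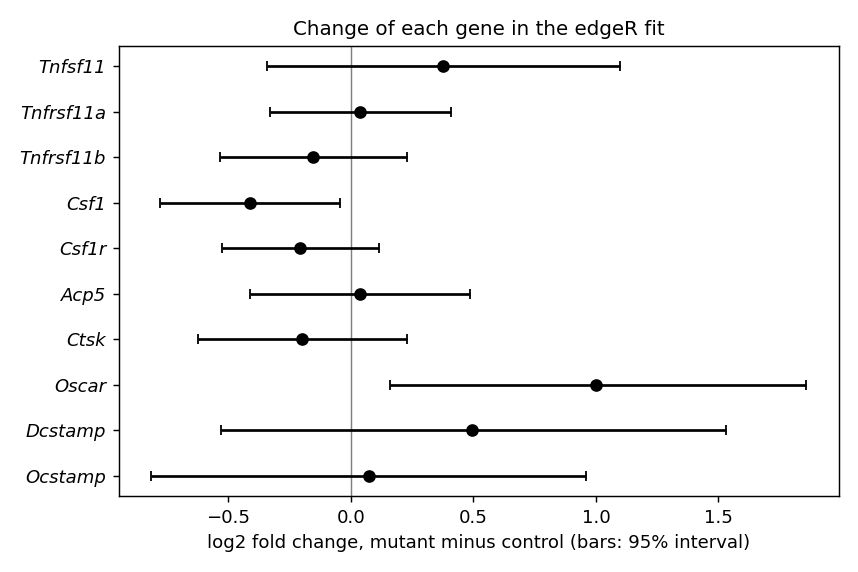
Log2 fold change of each of the 10 genes, mutant minus control, with its 95% interval from the edgeR fit. The unadjusted intervals of *Oscar* (0.16 to 1.86) and *Csf1* (-0.78 to -0.05) leave out 0, and those of the low genes *Tnfsf11*, *Dcstamp* and *Ocstamp* are wide.

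*Oscar* (chromosome 7, 3609813 to 3616157, minus strand) encodes an immunoglobulin-like receptor that binds exposed collagen and signals through FcRγ. It had 16, 11 and 8 counts in control libraries and 22, 20 and 25 counts in mutant libraries, or 0.248, 0.189 and 0.13 CPM against 0.372, 0.347 and 0.424 CPM. Every mutant library was above every control library (exact two-sided permutation test, p = 0.1, the smallest p that 3 libraries against 3 allow). The same order of the groups was found for 22.6% of all genes tested. The fitted log2 fold change was 1.0 (SE 0.37, 95% interval 0.16 to 1.86) with an unadjusted p-value of 0.025 and an adjusted p-value of 0.084 from edgeR. The adjusted p-value was 0.08 to 0.30 over the 14 alternatives in which the gene was tested.

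The adaptors and receptors around OSCAR were examined next, gene by gene. Of 16 genes in a list of costimulatory receptors, adaptors and myeloid transcription factors, 15 were tested, 5 rose and none fell (33.3% past the threshold, against 20.2% of all genes tested; median log2 fold change 0.34). *Fcer1g* had 5.84, 6.48 and 6.3 CPM in control libraries and 15.8, 10.4 and 7.52 CPM in mutant libraries (log2 fold change 0.86, standard error 0.25, adjusted p = 0.043 from edgeR). *Tyrobp* had 5.81, 5.51 and 5.17 CPM in control libraries and 8.69, 9.45 and 6.54 CPM in mutant libraries (log2 fold change 0.58, standard error 0.16, adjusted p = 0.041 from edgeR). For both adaptors mutant library 3 lay closest to the controls. *Trem2*, a receptor that signals through DAP12, rose from 2.15 ± 0.34 to 3.65 ± 0.737 CPM, and *Tfe3*, a factor of the MITF family, from 43.3 ± 0.662 to 54.9 ± 4.46 CPM (SD, n = 3 per group; adjusted p = 0.042 and 0.037 from edgeR). *Pirb*, an inhibitory receptor from a family of closely related genes whose reads are hard to assign, had 0.745, 0.823 and 0.842 CPM in control libraries and 6.8, 4.59 and 1.44 CPM in mutant libraries (adjusted p = 0.016 from edgeR).

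These calls depended on single libraries. The calls of *Fcer1g*, *Tyrobp* and *Trem2* were lost without any 1 control library and without mutant library 1 or 2, and the GC offset gave adjusted p-values of 0.076, 0.09 and 0.066 in edgeR, although the direction held in all 15 alternatives. That of *Tfe3* was lost without any 1 control library, without mutant library 1 and with the GC offset (adjusted p = 0.14 from edgeR). *Pirb* lost the threshold only without a control library. *Mitf*, which drives *Acp5* and *Ctsk* in osteoclasts, was lower in every mutant library without passing (11.3 ± 0.263 against 6.24 ± 2.68 CPM, SD, n = 3 per group; adjusted p = 0.052 from edgeR). Such an order was found for 22.1% of all genes tested.

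**Figure D4:**
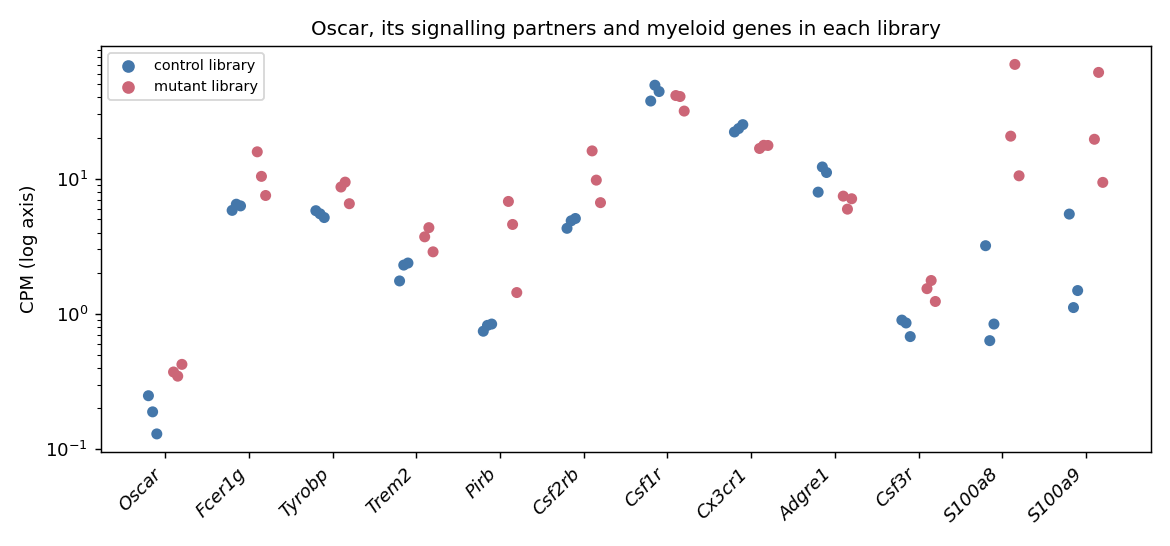
CPM on a log axis of *Oscar*, its signaling partners and myeloid markers in each control (blue) and mutant (red) library. *Oscar* to *Csf2rb* and *Csf3r* to *S100a9* lie higher in the mutant libraries, while the macrophage genes *Cx3cr1* and *Adgre1* lie lower and *Csf1r* overlaps.

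Markers of leukocytes moved in both directions beside *Oscar* and the adaptors. Of 20 macrophage and leukocyte markers 18 were tested, 3 rose and 2 fell (27.8% past the threshold, against 20.2% of all genes tested; 12 positive and 6 negative log2 fold changes, median 0.38), and their summed level was 203 to 225 CPM in control and 194 to 346 CPM in mutant libraries. The genes that rose are known from neutrophils. *S100a8* had 3.2, 0.635 and 0.842 CPM in control libraries and 20.7, 70.2 and 10.5 CPM in mutant libraries, *S100a9* had a log2 fold change of 3.47, and *Csf3r*, the receptor for G-CSF, one of 0.90 (adjusted p = 0.013, 0.023 and 0.039 from edgeR). *Cx3cr1* and *Adgre1*, markers of tissue macrophages, fell. *Cx3cr1* fell from 23.6 ± 1.48 to 17.4 ± 0.524 CPM and *Adgre1*, which encodes F4/80, from 10.4 ± 2.21 to 6.84 ± 0.778 CPM (SD, n = 3 per group; adjusted p = 0.019 and 0.048 from edgeR). Without control library 2 or 3 none of these 5 passed. Other macrophage markers had positive log2 fold changes that did not pass. They were 0.62 for the complement gene *C1qb* (adjusted p = 0.072 from edgeR), 0.38 for *C1qc*, 0.25 for *C1qa*, 0.39 for *Laptm5* and 0.41 for *Cd68*. *C1qb* was higher in every mutant library, as were 22.6% of all genes tested. Negative log2 fold changes that did not pass were those of *Mrc1* (-0.59) and *Ptprc* (-0.16). Neutrophils also express *Fcer1g*, *Tyrobp* and *Pirb*, and the part of other myeloid cells in the values of *Oscar* and its partners was not tested.

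The fusion genes were at the limit of detection. *Dcstamp* (chromosome 15, 39745930 to 39760938, plus strand), which encodes a membrane protein required for the fusion of precursors, had 12, 9 and 5 counts in control libraries and 12, 14 and 9 counts in mutant libraries. *Ocstamp* (chromosome 2, 165393760 to 165400405, minus strand), its partner in fusion, had 25, 15 and 17 counts in control libraries and 27, 14 and 16 counts in mutant libraries. The log2 fold changes were 0.50 (95% interval -0.53 to 1.53) and 0.07 (95% interval -0.81 to 0.96), with adjusted p-values of 0.44 and 0.91 from edgeR. The interval of *Dcstamp* included a doubling, and that of *Ocstamp* left out a 2-fold change in either direction. Of 9 further fusion genes 7 were tested and none passed the threshold, against 20.2% of all genes tested (edgeR). The groups did not overlap for 4 of these 7, against 44.7% of all genes tested. *Cd47* and *Cd44* were lower in the mutant libraries, and *Cd9* and *Adam8* were higher. The hyaluronan receptor *Cd44*, the most abundant of the 9 fusion genes, had 390.8 ± 2.13 CPM in control and 301.8 ± 39 CPM in mutant libraries (SD, n = 3 per group; adjusted p = 0.066 from edgeR).

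The resorption enzymes were well measured and did not separate the groups. *Acp5* (chromosome 9, 22126727 to 22135711, minus strand) reached 16.4, 12.8 and 13.2 CPM in control libraries and 18.9, 11.6 and 13 CPM in mutant libraries. Mutant libraries held both the highest and the lowest value. Its log2 fold change was 0.04 (95% interval -0.41 to 0.48, adjusted p = 0.91 from edgeR). *Ctsk* (chromosome 3, 95499256 to 95509362, plus strand) had 36.9, 41 and 43 CPM in control libraries and 44.6, 35.6 and 25.4 CPM in mutant libraries. The spread among mutant libraries (SD 9.61 CPM) was larger than that among controls (SD 3.13 CPM), and the log2 fold change was -0.20 (95% interval -0.62 to 0.23, adjusted p = 0.46 from edgeR). *Acp5* and *Ctsk* did not follow each other, with a ratio of *Ctsk* to *Acp5* counts of 2.25 to 3.27 in control and 1.95 to 3.08 in mutant libraries.

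Of 21 other genes of resorption 20 were tested, 1 rose and 1 fell (10% past the threshold, against 20.2% of all genes tested). *Snx10*, a sorting nexin required for acid secretion and mutated in osteopetrosis, had 15, 14.7 and 16 CPM in control libraries and 9.27, 8.54 and 8.15 CPM in mutant libraries. Its log2 fold change of -0.82 (SE 0.11, adjusted p = 0.003 from edgeR) was past the threshold in all 15 alternatives, as was that of *Sost*. *Cst3*, the cystatin that inhibits cathepsins, rose from 375 ± 41.6 to 538 ± 32.3 CPM (SD, n = 3 per group; adjusted p = 0.025 from edgeR), and this call was lost under the GC offset (log2 fold change 0.32, adjusted p = 0.16 from edgeR), without control library 2 or 3 and without mutant library 1. The chloride channel *Clcn7* was higher in every mutant library, as were 22.6% of all genes tested, and did not pass (32.9 ± 0.834 against 41.6 ± 6.68 CPM, SD, n = 3 per group; adjusted p = 0.08 from edgeR).

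Few genes of signal transduction below RANK passed the threshold. Of 26 genes listed 25 were tested, and *Rela* rose while *Chuk* fell (8% past the threshold, against 20.2% of all genes tested). Both belong to the NF-κB pathway. *Rela* had 41.3, 38.7 and 39.9 CPM in control libraries and 50, 49.4 and 49.8 CPM in mutant libraries, and *Chuk*, which encodes the kinase IKKα, fell from 27.5 ± 0.669 to 21.9 ± 0.892 CPM (SD, n = 3 per group; adjusted p = 0.031 and 0.038 from edgeR). Under the GC offset the log2 fold changes were 0.06 and -0.08 (adjusted p = 0.66 and 0.55 from edgeR), and both calls were lost without any 1 control library and without mutant library 1. The most abundant genes of the list, *Akt1*, *Tab2* and *Jund*, did not pass.

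Among 30 other ligands, receptors and inhibitors 22 were tested, 2 rose and 2 fell (18.2% past the threshold, against 20.2%). *Wnt5a*, a ligand of Ror2 that enhances the response of osteoclast precursors to RANKL, had 176, 244 and 230 CPM in control libraries and 138, 111 and 140 CPM in mutant libraries (log2 fold change -0.74, standard error 0.15, adjusted p = 0.016 from edgeR). *Sema3a*, a semaphorin that restrains osteoclast formation, fell from 15.9 ± 1.7 to 11.3 ± 0.449 CPM (SD, n = 3 per group; adjusted p = 0.024 from edgeR). *Csf2rb*, the common β chain of the receptor for GM-CSF, rose from 4.76 ± 0.408 to 10.8 ± 4.8 CPM, and *Tnfrsf1a*, a TNF receptor, from 40.1 ± 0.662 to 49.9 ± 4.35 CPM (SD, n = 3 per group; adjusted p = 0.027 and 0.048 from edgeR). None of these 4 calls held without control library 2 or without control library 3, and *Sema3a* and *Tnfrsf1a* also lost theirs under the GC offset (log2 fold changes of -0.22 and 0.13). The inflammatory cytokines *Tnf*, *Il1a* and *Il1b* did not pass the filter on low counts.

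Over the whole pathway outside the 10 genes, 116 of 121 listed genes were in the table, 106 were tested and 16 passed the threshold, 9 of them higher and 7 lower. This share of 15.1% compares with 20.2% of all genes tested, and the median log2 fold change of 0.02 with 0.01. The number past the threshold was 2 without control library 2, 2 without control library 3, 9 without control library 1, 6 without mutant library 1 and 33 with DESeq2's Wald test. The share of the pathway was below that of all genes in each of these fits but the last, where it was 31.1% against 28%. With scaling by library size alone, 6 were higher and 13 lower, and under the GC offset 3 were higher and 9 lower.

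Some of the 10 genes varied together from library to library. Over the 6 libraries the log2 levels of *Acp5* and *Ocstamp* had a Pearson correlation of 0.99, although only 14 to 27 counts of *Ocstamp* stood behind each value. Control library 1 and mutant library 1 held the most of both. *Csf1* and *Csf1r* had a correlation of 0.90, and *Tnfrsf11b* and *Csf1* one of 0.88, whereas *Csf1r* and *Acp5* had -0.08. *Oscar* and *Csf1* had the lowest value of the 45 pairs, -0.85. These values span both groups, so differences between the groups enter them. With each group's mean removed, *Oscar* and *Csf1* had -0.65, and the lowest pair was *Tnfsf11* and *Oscar* (-0.83). *Tnfsf11* and *Csf1* then moved from -0.04 to 0.82, and *Acp5* and *Ocstamp* stayed at 0.99. All points share the same 6 libraries and their depth, and the coefficients are descriptions. Outside the 10 genes, the 5 of 15049 genes of at least 1 CPM whose levels most resembled those of *Acp5* were *Ap2a1*, *Cntnap2*, *AC130204.1*, *Igf2bp3* and *Rassf5*, with correlations of 0.97 over the 6 libraries, and none of the 5 passed the threshold.

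**Figure D5:**
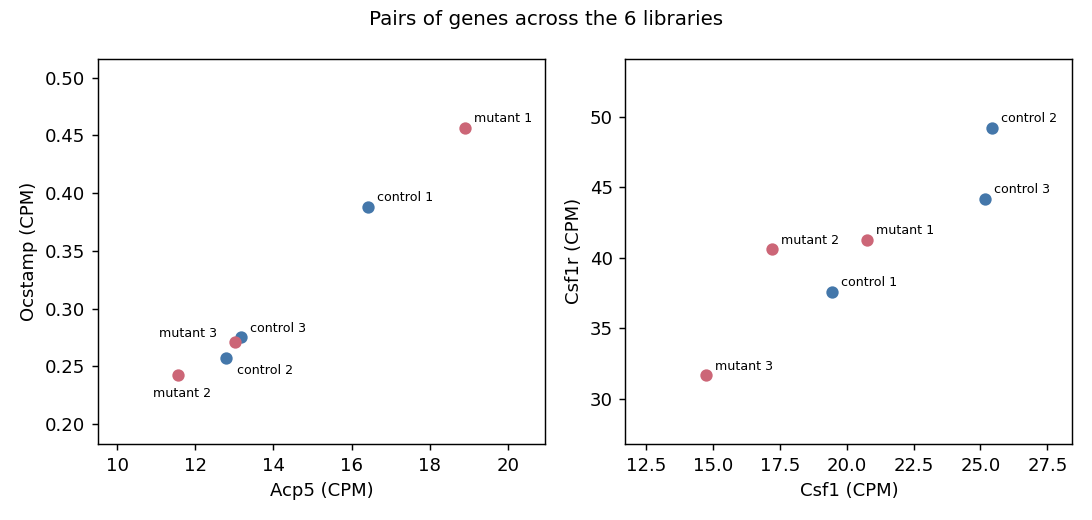
CPM of *Ocstamp* against *Acp5* (left) and of *Csf1r* against *Csf1* (right), 1 point for each of the 6 libraries, blue for control and red for mutant; the axes do not start at 0. *Acp5* and *Ocstamp* are highest in mutant library 1 and control library 1, and the order of the libraries differs in the right panel.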

How the data were processed

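The authors deposited estimated counts per gene and a table of normalized signal per gene. The paper names single-end reads of 75 cycles, TopHat 2 and mm10, with reads counted over exons, while the submitters' processing notes name STAR 2.6.1d and Partek. The use of strand and the handling of reads shared by overlapping genes are not given in the sources used here. In the deposited signal table each value is the estimated count plus 1 times a factor per library, not divided by length. The count table held 6 further sample columns that the labels assign to no group, and they were not used.

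Estimated counts (47.8% of them whole) were rounded. R 4.3.3, edgeR 4.0.16, limma 3.58.1 and DESeq2 1.42.0 were used. Genes were kept by filterByExpr, scaled by TMM and tested with edgeR's quasi-likelihood test over all 19330 genes, adjusted by the Benjamini-Hochberg method, two-sided. The same code was tested on simulated counts. The exact permutation tests ran on log2 CPM (prior count 2). Coordinates, exon lengths and GC content came from GENCODE M21 (mm10), matched by symbol for all 27506 genes. Library pairs within a group differed beyond sampling noise.

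The members and lists were chosen with earlier results of these data known. The text names all 10 members and *Ror2*; listed pathway genes past the threshold and up to 3 more per list by level; the most abundant or called markers; and the 5 genes most like *Acp5*. Others were named after their values were seen. Alternatives were DESeq2, other scalings and filters, limma-trend with a pseudocount of 1, the sample index as a block, GC offsets and leaving out each library. Sums of overlapping genes were added after seeing the data.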

Additional observations from a re-analysis of the deposited data

How the results depend on the processing

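None of the 10 members passed an adjusted p of 0.05 in any alternative in which it was fitted (14 or 15 each), and the lowest value was 0.053 (*Csf1*, edgeR with the GC offset). The filter of 1 CPM in 3 libraries left no value for *Tnfsf11*, *Oscar*, *Dcstamp* and *Ocstamp*. Directions held in all alternatives for 6 members. The log2 fold change of *Tnfrsf11b* turned to 0.038 with the GC offset and to 0.029 with the replicate block and GC offset. That of *Acp5* turned to -0.14 and -0.17, and that of *Ocstamp* to -0.061 and -0.085, under the same settings. With single libraries left out, *Tnfrsf11a* ran from -0.040 to 0.11, *Acp5* from -0.20 to 0.18 and *Ocstamp* from -0.26 to 0.27. The cause was not tested.

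With the replicate block (the sample index 5 to 7 shared by both groups) 2013 genes passed, 7 of the pathway list, and *Ror2* did not (-0.43, adjusted p = 0.058 from edgeR). With the block and GC offset 1269 and 4 passed. Deviations of libraries with the same index correlated at -0.10, -0.08 and 0.00, and those of libraries with different indices at -0.04 to 0.10. What the index stands for is not given in the sources used here, and shared handling was not tested. DESeq2's Wald test called 33 pathway genes (31.1%, against 28% of all genes). Leaving out single libraries gave 872 to 5001 genes, 2 to 23 pathway genes, and for *Ror2* -0.46 to -0.41, with its call lost without control library 2 or 3. The ratio of *Tnfsf11* to *Tnfrsf11b* moved by less than 1 SD. Depth limits *Tnfsf11*, *Oscar*, *Dcstamp* and *Ocstamp*.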
